A study of Mus musculus with 18 samples.

Results

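The unfolded protein response and the integrated stress response were followed in bone marrow-derived macrophages through 38 member genes chosen by name from knowledge of these pathways. Each gene was read from probe sets annotated with its symbol alone, and the probe set with the highest mean stood for the gene. That gave values for 36 of the 38 members, out of 17097 genes measured in this way. Mthfd2 was covered only by probe sets shared with another gene and Slc1a4 by no single-gene probe set matched here, so neither was analysed. The 36 members comprised 17 genes of the ATF4 and amino acid arm, 3 sensors (Xbp1, Atf6, Ern1) and 16 genes of the endoplasmic reticulum (ER) arm, which held 13 chaperones and folding factors and 3 genes of ER-associated degradation.

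The cells came from male FVB/NJ mice 10 to 14 weeks old, either wild type (WT) or labelled as knockout (KO) of Klf3. KLF3 is a zinc finger protein that mostly represses its targets. The labels do not describe the Klf3 allele. Marrow was grown for 7 to 10 days in medium supplemented with L929-conditioned medium, which supplies M-CSF. In every group the cells were then washed and moved to regular medium. Both genotypes were harvested at 0 h, after 8 h with phosphate-buffered saline as the vehicle, or at the same 8 h after lipopolysaccharide (LPS) at 100 ng/mL, the bacterial outer membrane component sensed by TLR4. Each of the 6 groups held 3 samples on 1 array each, 18 arrays in all. The labels do not say whether replicates were separate animals or cultures, and the p-values therefore reflect no more than the spread among these arrays, which may be technical.

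The unfolded protein response begins at the ER membrane, where 3 sensor proteins detect misfolded protein. IRE1, encoded by Ern1, splices the Xbp1 messenger into the form that encodes an active transcription factor, ATF6 is cut to release another, and PERK phosphorylates the translation factor eIF2. Phosphorylated eIF2 slows most protein synthesis while favouring the translation of ATF4, and other kinases that sense amino acid shortage, heme loss or viral RNA reach the same point, which is why that branch is called the integrated stress response. ATF4 raises genes of amino acid synthesis and import together with stress regulators such as CHOP, encoded by Ddit3, whereas XBP1 and ATF6 raise chaperones, folding enzymes and the degradation machinery. In macrophages the secretory load after a TLR4 signal and the supply of amino acids both bear on these branches. The arrays measure total messenger, so neither Xbp1 splicing nor ATF4 protein was measured.

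Values are log2 intensities after quantile normalization, with n = 3 arrays per group throughout, given as means ± SD for levels and as log2 differences ± SE for comparisons. A gene is called when its Benjamini-Hochberg adjusted p from limma over all 17097 genes is under 0.05. Of the 6 Klf3 probe sets, the 1 that separated the genotypes most read an intensity of 82.9 to 317 in WT and 4.76 to 18.5 in KO arrays. Another, at 84.6 to 508 in WT and 125 to 647 in KO arrays, went the other way, by 1.51 on the log2 scale at 0 h, 1.31 after vehicle and 0.24 after LPS. Whether any of them lies in the part that was deleted is not given in the labels. All 9 macrophage markers (Adgre1, Csf1r and others) were above the nonspecific level in all 18 arrays. In the neutrophil list 3 of 6 measured markers were above it in none, S100a9, Elane and Mpo among them, while S100a8 and Camp were higher after LPS, and the summed intensity of the list was 393 to 538 in LPS arrays against 50.4 to 110 in the others. Every measured marker of mast cells (4) and dendritic cells (3) was above the level in no array, as were 3 of 5 for T and NK cells, 4 of 5 for B cells, 5 of 6 for stromal cells and 1 of 3 for erythroid cells. The Gapdh 5' minus 3' signal, a measure of RNA integrity, was 0.01 to 0.15 at 0 h, -0.32 to -0.07 after vehicle and -0.75 to -0.07 after LPS, and its part in the results was not tested. Plate row cannot be told apart from treatment, as each row carried arrays of a single condition. In these bulk samples fewer cells of a type and less RNA per cell cannot be told apart. The upper quartile of deposited intensity was 66.6 to 75.7 in WT and 75.8 to 107 in KO cells after LPS, against 97.2 to 167 in the other arrays, so comparisons with the LPS groups depend on scaling, as described beside them.

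Before the values, promoter sequences show what the 2 arms look like in letters. The promoter entries of RefSeq (GRCm38.p6, 250 bases before to 50 after each start) held 34 of the 38 members. The letters TGATGNAA, the core that ATF4 binds together with C/EBP proteins, were searched on both strands. They occurred in 3.97% of all 32851 promoters, in 6 of 20 promoters of the ATF4 arm (Asns, Atf3, Chac1, Slc1a4, Trib3, Vldlr) and in 1 of 14 of the ER arm (Herpud1). The asparagine synthetase, Chac1 and Herpud1 windows are shown because these 3 genes carry results described here, with the matched letters in capitals and all bases upstream of the start.
Asns (chr6:7693210-7693277, minus strand): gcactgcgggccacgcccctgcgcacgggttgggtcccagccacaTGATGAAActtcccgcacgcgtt
Chac1 (chr2:119351004-119351101, plus strand): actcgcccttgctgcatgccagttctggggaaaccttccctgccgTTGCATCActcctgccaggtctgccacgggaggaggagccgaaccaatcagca
Herpud1 (chr8:94386272-94386369, plus strand): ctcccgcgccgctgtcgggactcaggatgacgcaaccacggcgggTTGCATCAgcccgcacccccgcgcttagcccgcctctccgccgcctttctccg

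The ER stress element, written here as CCAAT and CCACG separated by 9 letters and searched on both strands, is the site through which ATF6 acts on chaperone genes. It occurred in 0.119% of all promoters, in 7 of 14 promoters of the ER arm (Calr, Canx, Creld2, Dnajc3, Hsp90b1, Hspa5, Pdia6) and in 0 of 20 of the ATF4 arm. The letters TGACGTGG, a site for ATF6 and XBP1, were found in 0.676% of all promoters and in no member. Hspa5, Creld2, Pdia6 and Canx are shown because they share the element and yet did not all change alike after LPS. A match describes letters in this window and is not evidence of binding.
Hspa5 (chr2:34771980-34772088, plus strand): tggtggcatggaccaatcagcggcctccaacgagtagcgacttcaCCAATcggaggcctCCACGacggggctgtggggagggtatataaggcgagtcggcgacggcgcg
Creld2 (chr15:88819475-88819583, plus strand): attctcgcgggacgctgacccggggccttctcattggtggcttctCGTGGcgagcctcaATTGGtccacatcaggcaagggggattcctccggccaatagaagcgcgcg
Pdia6 (chr12:17266446-17266554, plus strand): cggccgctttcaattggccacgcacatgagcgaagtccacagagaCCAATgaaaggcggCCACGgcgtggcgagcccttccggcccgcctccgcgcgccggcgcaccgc
Canx (chr11:50325755-50325863, minus strand): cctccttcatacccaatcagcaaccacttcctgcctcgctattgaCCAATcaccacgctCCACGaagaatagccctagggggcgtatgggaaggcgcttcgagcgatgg

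After 8 h in fresh medium with vehicle, the amino acid synthesis genes Psat1 and Asns, the transporter Slc7a5 and the stress genes Chac1 and Trib3 had fallen in WT cells. In this comparison with 0 h, the elapsed time and the medium cannot be told apart. Slc7a5 and Psat1 had fallen in KO cells as well. Slc3a2, the other amino acid transporter measured among the members, did not fall. Its difference was 0.23 in WT cells, not called, and 0.55 in KO cells, a called rise. The rise of Slc3a2 was no longer called with values as deposited or with equal hybridisation controls. In WT cells 19 members were lower and 1 was higher than at 0 h, where 7.01% of all genes were lower and 7.16% higher. In KO cells 7 members were lower and 2 higher, against 5.79% and 6.76% of all genes. The median log2 difference of the ATF4 arm was -0.95 in WT and -0.14 in KO cells, that of the ER arm was -0.39 and -0.15, and that of all genes was 0 and -0.01. The KO value of the ATF4 arm was -0.34 without the third KO vehicle array and -0.37 without KO replicate 3 at every time. The difference between genotypes in this change was called for 0 of the 36 members and for 0% of all genes, with 8 members at an unadjusted p under 0.05, so the larger count in WT cells is not shown to be a difference between genotypes. With values as deposited the median of all genes moved to -0.20 in WT and -0.26 in KO cells, and that of the ATF4 arm to -1.18 and -0.47. Over all genes 222 were then higher and 1465 lower in WT cells, against 1225 and 1198, and 199 and 1559 in KO cells, against 1155 and 990.

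Atf4, the transcription factor of the arm, was 11.52, 11.45 and 11.10 in the WT arrays at 0 h and 10.19, 10.11 and 10.44 after vehicle. KO arrays held 10.83, 10.84 and 10.96 at 0 h and 10.21, 10.12 and 10.30 after vehicle. The 0 h and vehicle arrays did not overlap in either genotype, and the fall was called in both, at -1.11 ± 0.13 in WT (adjusted p 4.54e-05) and -0.67 ± 0.13 in KO cells (adjusted p 0.00247). Slc7a5, the large neutral amino acid transporter LAT1, read 8.00, 7.58 and 6.73 in WT at 0 h and 4.56, 4.44 and 4.08 after vehicle. In KO arrays Slc7a5 was 6.0, 5.56 and 5.65 at 0 h and 4.61, 3.89 and 5.04 after vehicle, where 2 of 3 arrays were above the nonspecific level. This was the largest fall among the members in WT cells, 8.46-fold (-3.08 ± 0.32, adjusted p 1.84e-05), and it was 2.34-fold in KO cells (-1.22 ± 0.32, adjusted p 0.0195).

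Psat1, an enzyme of serine synthesis, was 8.45, 8.09 and 7.97 in WT arrays at 0 h and 5.44, 5.59 and 5.22 after vehicle. It was 7.82, 7.56 and 7.73 in KO arrays at 0 h and 5.21, 5.40 and 5.78 after vehicle. The fall was called in both, -2.75 ± 0.47 in WT (adjusted p 0.000892) and -2.24 ± 0.47 in KO cells (adjusted p 0.00452), with no overlap between times. Asns, which makes asparagine from aspartate, read 9.69, 9.74 and 8.28 at 0 h and 7.62, 7.15 and 7.27 after vehicle in WT arrays. In KO arrays Asns was 7.96, 7.68 and 7.64 at 0 h and 6.59, 6.39 and 7.71 after vehicle, with overlap. Its difference was -1.89 ± 0.43 in WT (adjusted p 0.00673) and -0.86 ± 0.43 in KO cells, which was not called (adjusted p 0.229). Shmt2, the mitochondrial serine hydroxymethyltransferase, was 7.81, 7.02 and 7.15 in WT arrays at 0 h and 6.47, 6.19 and 6.27 after vehicle, a called fall of -1.02 ± 0.27 (adjusted p 0.0177). KO arrays held 6.45, 6.36 and 6.30 of Shmt2 at 0 h and 6.17, 6.26 and 6.45 after vehicle, so the KO values at 0 h lay within the WT range after vehicle.

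Of the 4 stress effectors 2 fell with them in WT cells, and of the 6 regulators 4 did. Sesn2 (-0.26) and Atf3 (0.46) were not called, and Vldlr lay under the nonspecific level in all 18 arrays. Chac1, an enzyme that degrades glutathione, was 7.82, 7.31 and 5.41 in WT arrays at 0 h and 4.29, 4.55 and 3.52 after vehicle, with 2 of 3 vehicle arrays above the nonspecific level. Its difference was -2.73 ± 0.50 in WT cells (adjusted p 0.00149), while KO arrays read 5.24, 5.26 and 4.74 at 0 h and 4.70, 4.35 and 3.93 after vehicle (-0.75 ± 0.50, adjusted p 0.401). Trib3, a pseudokinase that restrains ATF4 and CHOP, was 7.05, 7.50 and 5.59 in WT arrays at 0 h and 4.93, 4.56 and 4.25 after vehicle. That was a difference of -2.13 ± 0.52 (adjusted p 0.0103), and the KO difference was -0.75 ± 0.52 (adjusted p 0.416). The 0 h arrays of Chac1, Trib3 and Asns were spread widely in WT cells, the third replicate lying far below the first and second. Centred on each gene's mean, the median of the ATF4 arm was 0.03 in that array against 0.65 and 0.63. Ddit3 (CHOP) read 8.63, 9.41 and 7.81 in WT arrays at 0 h and 7.73, 7.76 and 7.56 after vehicle (-0.94 ± 0.30, adjusted p 0.0461). Ppp1r15a, the regulatory subunit that dephosphorylates eIF2 (GADD34), fell by 1.32 on the log2 scale in WT cells (SE 0.21, adjusted p 0.000583) and was -0.37 ± 0.21 in KO cells (adjusted p 0.318). Ddit4 (REDD1, an inhibitor of mTORC1) was lower in WT cells at -0.95 ± 0.22 (adjusted p 0.00788), and Psph also fell. Cebpg, the C/EBP partner of ATF4, went the other way and rose in both genotypes, with 0.74 ± 0.13 in WT (adjusted p 0.000854) and 0.95 ± 0.13 in KO cells (adjusted p 0.000138). Under values as deposited and under equal hybridisation controls, the Cebpg rise was no longer called in either genotype.

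**Figure D1:**
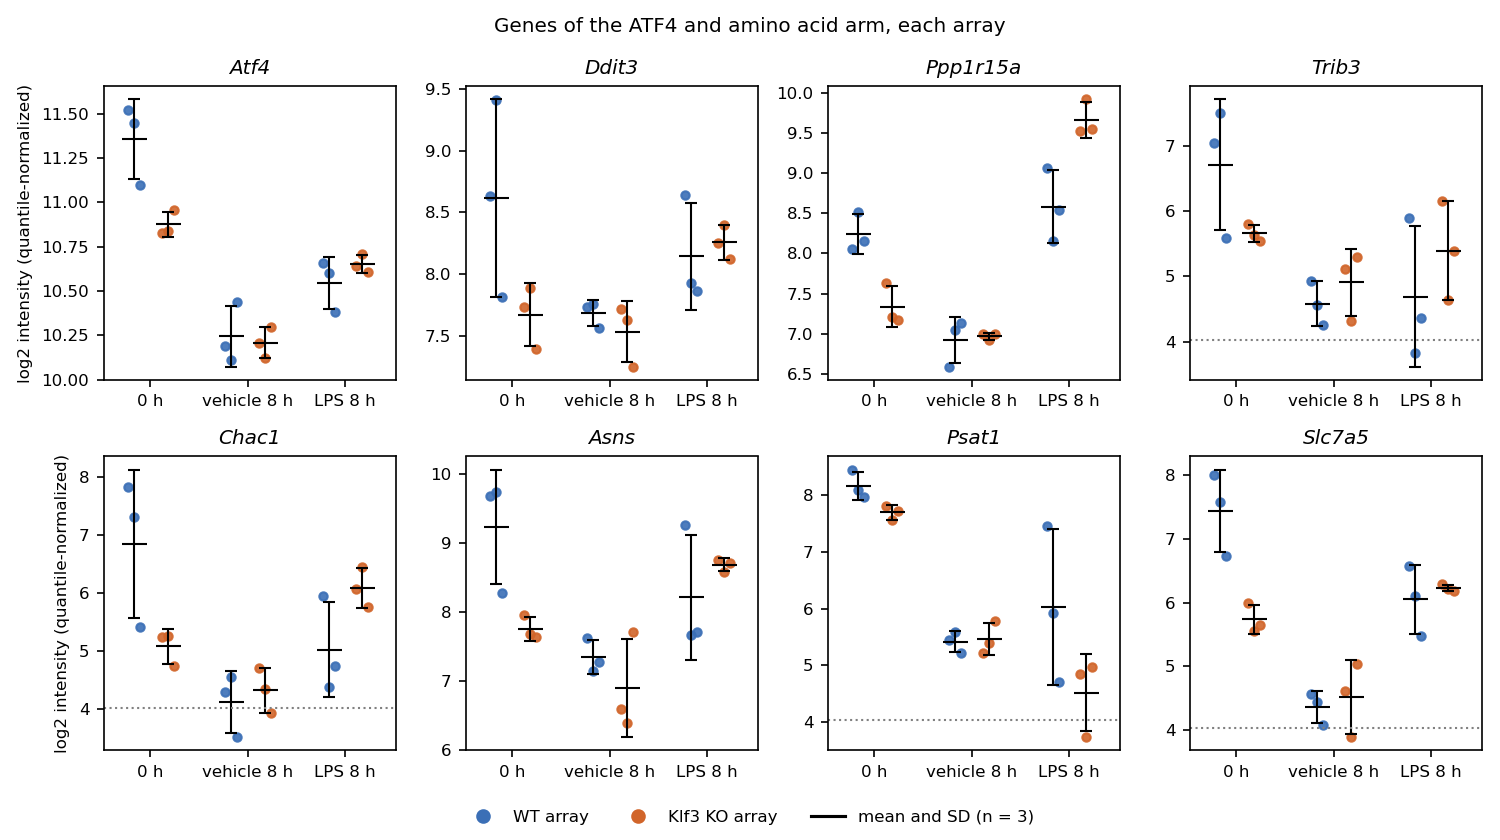
Log2 intensity (vertical axis, a separate range in each panel) of 8 genes of the ATF4 and amino acid arm in the 18 arrays, by condition, WT in blue and Klf3 KO in orange, with the mean and SD of 3 arrays as bars. The dotted line is the median nonspecific level (4.03). Slc7a5, Psat1, Chac1 and Trib3 fall steeply from 0 h to vehicle in WT arrays, and Ppp1r15a is highest in the KO arrays after LPS (9.52 to 9.92).

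In the ER arm 7 of 16 genes fell from 0 h to vehicle in WT cells and 4 of 16 in KO cells, and none rose. Manf, a secreted ER stress factor, was 10.40, 10.36 and 10.45 in WT arrays at 0 h and 9.20, 9.23 and 9.03 after vehicle (-1.25 ± 0.16, adjusted p 0.000101). Sdf2l1, an ER co-chaperone, read 9.67, 9.78 and 9.91 at 0 h and 8.69, 8.66 and 8.40 after vehicle in WT arrays (-1.21 ± 0.18, adjusted p 0.000274), and it fell by 1.06 on the log2 scale in KO cells (SE 0.18, adjusted p 0.000817). Herpud1, a membrane protein that recruits the degradation ubiquitin ligase, was 8.87, 9.03 and 8.86 in WT arrays at 0 h and 7.76, 7.40 and 7.60 after vehicle (-1.34 ± 0.18, adjusted p 0.000157). Herpud1 and Manf were also called lower in KO cells, at -0.85 ± 0.18 (adjusted p 0.00562) and -0.83 ± 0.16 (adjusted p 0.00249). Hspa5 (BiP, the main ER Hsp70 and the binding partner of the sensors) fell in WT cells by 0.82 on the log2 scale (SE 0.18, adjusted p 0.00615) and was -0.51 ± 0.18 in KO cells (adjusted p 0.0853). Pdia4, Pdia6 and Edem1 were called lower in WT cells and Pdia4 in KO cells as well. Hsp90b1, Calr, Canx, Hyou1, Creld2, Dnajb9, Dnajc3, Pdia3 and Sel1l were not called in either genotype, although a second Hsp90b1 probe set fell in both, by 0.59 and 0.52 on the log2 scale. Other Dnajc3 probe sets gave -0.54, -0.58 and -0.92 in WT cells, all called, and -0.13, not called. In KO cells they gave -0.66 to -0.25, none called. Xbp1 was 10.99, 11.10 and 10.97 in WT arrays at 0 h and 10.63, 10.71 and 10.49 after vehicle, a called difference of -0.41 ± 0.11 (adjusted p 0.0157). The KO difference of Xbp1 was -0.33 ± 0.11 (adjusted p 0.0586). Without WT replicate 2, 12 members were called in WT cells instead of 20, and with arrays set to equal hybridisation controls 13. Without KO replicate 1 or without KO replicate 2, 4 members were called in KO cells instead of 9.

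At 0 h the differences between genotypes were negative across the ATF4 arm, but no member passed the threshold. Here 0 of the 36 members were called, where 0.14% of all genes were (0.0292% lower), and 13 members had an unadjusted p under 0.05, all of them lower in KO cells. Of these 13, 11 were in the ATF4 arm. All 17 genes of that arm had a negative difference, with a median of -0.55, against -0.20 in the ER arm and 0 over all genes. The largest were Chac1 at -1.77 ± 0.50 (adjusted p 0.308), Slc7a5 at -1.70 ± 0.32 (adjusted p 0.0544), Asns at -1.48 ± 0.43 (adjusted p 0.327) and Phgdh, the first enzyme of serine synthesis, at -1.33 ± 0.34 (adjusted p 0.223). For Phgdh the WT arrays read 7.22, 7.01 and 6.23 and the KO arrays 5.51, 5.44 and 5.52, with no overlap. For Slc7a5 the genotypes did not overlap either (6.73 to 8.00 in WT and 5.56 to 6.0 in KO arrays). Slc7a5 was called in 11 of 17 alternative analyses and Chac1 in 3 of 17, among them those without the third WT array at 0 h, where 2 members were called. Within the 3 plate columns, each holding 1 WT and 1 KO array per condition, 14 of 17 genes of the ATF4 arm were lower in KO in every column, with column medians of -0.85, -0.22 and -0.72. Vldlr, counted among these genes, lay under the nonspecific level in all 18 arrays, so its sign carries no weight. With only genes above that level on at least 3 arrays, the median of the ATF4 arm at 0 h was -0.73.

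After vehicle the genotypes were close. No member was called, 0% of all genes were, and no member had an unadjusted p under 0.05. The median difference was 0.03 in the ATF4 arm and 0.11 in the ER arm, and both signs turned under the other scalings (-0.16 to -0.11 and -0.07 to -0.02) and without the third KO array (-0.08 and -0.01). The 95% interval for Slc7a5 was -0.53 to 0.84 and that for Hspa5 -0.32 to 0.46, so differences up to these bounds remain possible. The third KO vehicle array stood apart from the first and second in the ER arm, with Hspa5 at 10.80 against 9.80 and 10.10 and Manf at 9.80 against 9.10 and 9.04.

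**Figure D2:**
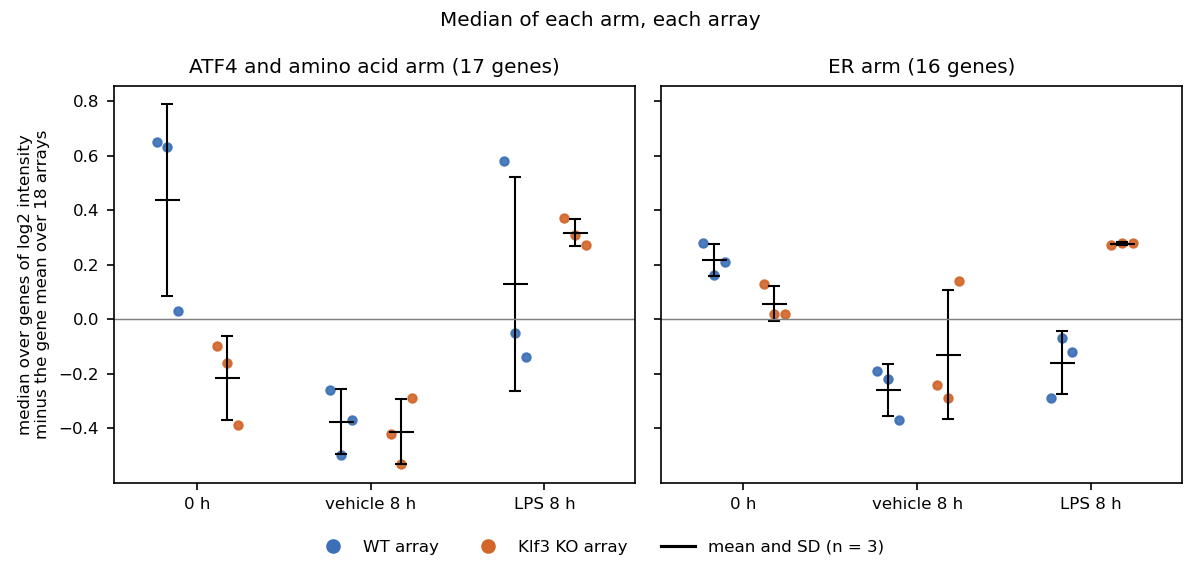
Median over the genes of each arm of the log2 intensity minus the gene's mean over 18 arrays (vertical axis, log2 units), for each array by condition, WT in blue and Klf3 KO in orange, with the mean and SD of 3 arrays. The ER arm lies at 0.27 to 0.28 in the KO arrays after LPS and at -0.29 to -0.07 in the WT arrays, while the ATF4 arm overlaps between genotypes after LPS.

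LPS raised a limited group of members in both genotypes, and more members passed the threshold in KO cells, although no member was called for the difference between genotypes in this response. In WT cells 8 members were higher and 7 lower than after vehicle, where 13.7% of all genes were higher and 18.7% lower. The share of members that fell in WT cells was thus near that of all genes, dim genes included. With only genes above the nonspecific level on at least 3 arrays, 9 of 35 members were higher and 7 lower in WT cells. Of the 10334 genes kept, 2391 were higher and 3405 lower. On that basis the share of members that rose was near that of the genes kept, and the share that fell was smaller. In KO cells 17 members were higher and 4 lower, against 13.9% and 20.6% of all genes. With the same filter 18 of 35 members were higher and 5 lower in KO cells, against 2366 and 3643 of 10334 genes. The ATF4 arm had a median log2 difference of 0.46 in WT and 0.48 in KO cells, and the ER arm 0.12 and 0.42, with all genes at -0.008 and -0.034. In WT cells these signs depend on scaling, since the values as deposited and the equal hybridisation controls moved the median of all genes to -0.44 and -0.43 and the ER arm to -0.34 and -0.33, with the ATF4 arm at -0.01 and 0. The WT median of the ATF4 arm also rested on the first WT LPS array, without which it was 0.24, and it was 0.21 without WT replicate 1 in every condition. That of the ER arm in WT was 0.19 without WT replicate 1, 0.05 without WT replicate 2 and 0.03 without WT replicate 3. The split of called members in WT cells was 4 higher and 12 lower with values as deposited, and 2 higher and 9 lower with equal hybridisation controls. Without WT replicate 1, 2 or 3 it was 7 higher and 5 lower, 7 and 6, and 7 and 5. The split over all genes was 743 higher and 6702 lower with the values as deposited against 2336 and 3191 after quantile normalization. In KO cells both arms stayed positive under all 3 other scalings (ATF4 arm 0.68 to 0.79, ER arm 0.45 to 0.57). In KO cells 11 members were called with equal hybridisation controls, 12 without KO replicate 1 and 13 without KO replicate 2, instead of 21. The vehicle arrays serve in this comparison and in that with 0 h, so the 2 sets of differences share their error.

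Of the members Ppp1r15a had the smallest adjusted p in both genotypes. Vehicle arrays of WT cells read 6.59, 7.04 and 7.13, and their LPS arrays 9.06, 8.15 and 8.54. The corresponding KO values were 6.99, 6.92 and 6.99 with vehicle and 9.52, 9.92 and 9.55 with LPS. The rise was 3.17-fold in WT (1.66 ± 0.21, adjusted p 1.3e-05) and 6.49-fold in KO cells (2.70 ± 0.21, adjusted p 4.89e-08), with every LPS array above every vehicle array. Slc7a5 after LPS read 6.57, 6.10 and 5.48 in WT arrays, all under the WT arrays at 0 h, and 6.29, 6.21 and 6.19 in KO arrays, all above the KO arrays at 0 h. Its rise was 1.69 ± 0.32 in WT (adjusted p 0.000589) and 1.72 ± 0.32 in KO cells (adjusted p 0.000472). Slc3a2, the heavy chain that carries Slc7a5 to the membrane, was 10.84, 10.81 and 10.72 with vehicle and 11.59, 11.31 and 11.78 with LPS in WT arrays. In KO arrays Slc3a2 read 10.83, 10.64 and 10.97 with vehicle and 12.10, 12.13 and 12.09 with LPS. Both rises were called, at 0.77 ± 0.14 (adjusted p 0.000271) and 1.29 ± 0.14 (adjusted p 1.13e-06).

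Ddit4 was 5.03, 5.31 and 5.61 with vehicle and 6.19, 6.04 and 6.57 with LPS in WT arrays, and 5.20, 4.83 and 5.55 against 6.56, 6.12 and 6.11 in KO arrays. The rise was 0.95 ± 0.22 in WT (adjusted p 0.00283) and 1.07 ± 0.22 in KO cells (adjusted p 0.000984). Asns reached 9.26, 7.67 and 7.71 in WT and 8.76, 8.58 and 8.72 in KO arrays after LPS. It was called in KO cells only at this threshold (1.79 ± 0.43, adjusted p 0.00336), with 0.86 ± 0.43 in WT cells (adjusted p 0.147), and the difference between genotypes in this response was not called. Chac1 reached 5.94, 4.38 and 4.74 in WT and 6.06, 6.44 and 5.75 in KO arrays, with 0.90 ± 0.50 in WT (adjusted p 0.201) and 1.75 ± 0.50 in KO cells (adjusted p 0.0111). Phgdh and Atf4 were also called higher in KO cells, at 0.99 ± 0.34 (adjusted p 0.033) and 0.44 ± 0.13 (adjusted p 0.0126). For Psat1 the WT LPS arrays read 7.45, 5.93 and 4.70 and the KO arrays 4.85, 3.73 and 4.96, where 2 of 3 were above the nonspecific level. It was called in neither genotype, at 0.61 ± 0.47 in WT (adjusted p 0.379) and -0.95 ± 0.47 in KO cells (adjusted p 0.138). Shmt2, Psph, Sesn2, Trib3, Atf3 and Ddit3 were not called in either genotype, and Vldlr lay under the nonspecific level in all 18 arrays. Cebpg fell in both genotypes, by 0.62 on the log2 scale in WT (SE 0.13, adjusted p 0.000977) and by 0.59 in KO cells (SE 0.13, adjusted p 0.00141).

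Among the sensors, the probe sets that stand for Atf6 and Ern1 fell in both genotypes while that of Xbp1 was not called, and for each of the 3 genes another probe set differed. Ern1 changed by -0.67 ± 0.19 in WT (adjusted p 0.0123) and -0.82 ± 0.19 in KO cells (adjusted p 0.00275), but 2 dimmer probe sets of Ern1, above the nonspecific level on 17 arrays, gave -0.01 and 0.12 in WT and -0.51 and -0.17 in KO cells, none of them called. Atf6 changed by -0.59 ± 0.21 (adjusted p 0.0416) and -0.80 ± 0.21 (adjusted p 0.00626), but its other probe set moved by 0.64 in WT cells, so the direction for Atf6 depends on the probe set. Xbp1 read 10.52, 10.79 and 10.73 in WT and 10.99, 10.85 and 10.93 in KO arrays after LPS, a difference from vehicle of 0.07 ± 0.11 (adjusted p 0.681) and 0.24 ± 0.11 (adjusted p 0.107). A dimmer Xbp1 probe set rose by 0.78 in WT (limma over all probe sets, adjusted p 0.000684) and by 0.92 in KO cells (adjusted p 0.000135), while the remaining 2 gave -0.05 to 0.22.

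**Figure D3:**
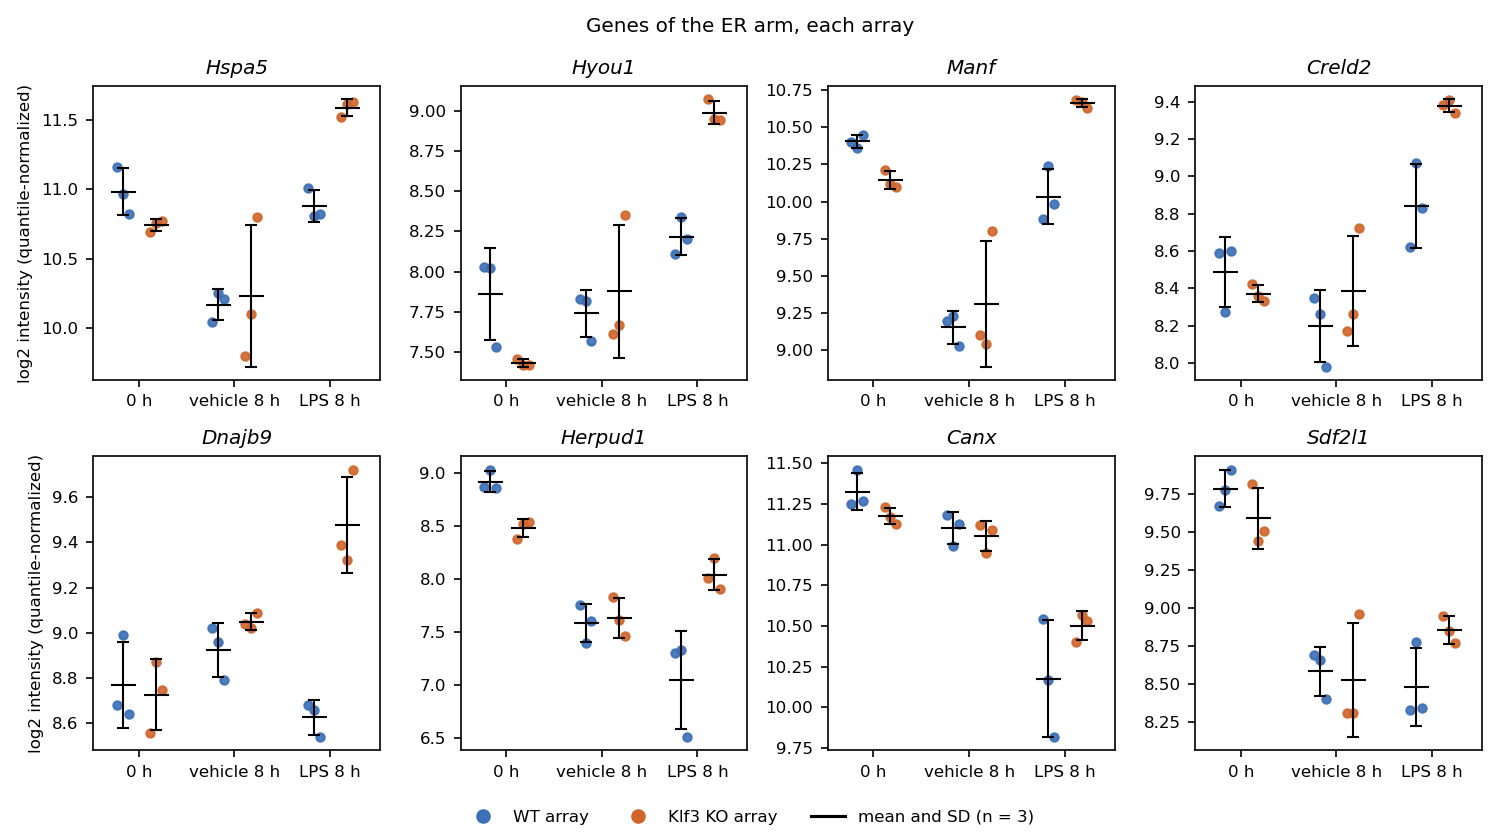
Log2 intensity (vertical axis, a separate range in each panel) of 8 genes of the ER arm in the 18 arrays, by condition, WT in blue and Klf3 KO in orange, with the mean and SD of 3 arrays as bars. For Hspa5, Hyou1, Manf, Creld2, Dnajb9 and Herpud1 every KO array after LPS lies above every WT array after LPS, and Canx is lower after LPS in both genotypes.

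In the ER arm several chaperones rose after LPS, whereas Canx and, in WT cells, the degradation genes fell. Hspa5 was 10.04, 10.25 and 10.21 with vehicle and 11.01, 10.81 and 10.82 with LPS in WT arrays, and 9.80, 10.10 and 10.80 against 11.52, 11.62 and 11.63 in KO arrays. The rise was 1.64-fold in WT (0.72 ± 0.18, adjusted p 0.00595) and 2.56-fold in KO cells (1.36 ± 0.18, adjusted p 1.85e-05). Manf reached 9.88, 10.24 and 9.98 in WT and 10.68, 10.67 and 10.63 in KO arrays, a rise of 0.88 ± 0.16 (adjusted p 0.000384) and 1.34 ± 0.16 (adjusted p 5.02e-06). Hyou1, a large ER chaperone that exchanges nucleotide on BiP, was 7.83, 7.82 and 7.57 with vehicle and 8.11, 8.34 and 8.20 with LPS in WT arrays. In KO arrays Hyou1 was 7.61, 7.67 and 8.35 with vehicle and 9.07, 8.95 and 8.94 with LPS. Its rise was 1.11 ± 0.18 in KO (adjusted p 8.96e-05) and 0.48 ± 0.18 in WT cells (adjusted p 0.0483), and the WT value turned to -0.20 with values as deposited. Creld2, a folding factor, was raised in WT by 0.65 ± 0.16 (adjusted p 0.00391) and in KO cells by 0.99 ± 0.16 (adjusted p 8.81e-05). Calr, Pdia4, Pdia6, Dnajb9 and Dnajc3 were called higher in KO cells, with differences of 0.36 to 0.64, although for Dnajc3 the mean of its 5 probe sets gave -0.21. The other probe sets of Dnajc3 gave -0.73 to 0.25 in KO cells. In WT cells they gave -2.2 to -0.41, all called lower, so the direction for Dnajc3 depends on the probe set. In the opposite direction, Canx (calnexin, a lectin chaperone of the membrane) fell by 0.92 on the log2 scale in WT (SE 0.14, adjusted p 9.4e-05) and by 0.55 in KO cells (SE 0.14, adjusted p 0.00662). Herpud1, Edem1 and Sel1l, the degradation genes, were all called lower in WT cells, at -0.54 ± 0.18, -0.58 ± 0.14 and -0.50 ± 0.14. By the probe sets used here none was called in KO cells. However, a second Herpud1 probe set of equal mean (7.95) gave -0.79 in WT and 0.77 in KO cells (limma over all probe sets, adjusted p 0.03 and 0.0319). Another probe set of Edem1 gave 0.00 and another of Sel1l 0.12 in WT cells. Of the 4 genes whose element is printed above, Hspa5 and Creld2 rose in both genotypes and Canx fell in both. Pdia6 was called in KO cells by the probe set used here, whereas its dimmer probe set rose in both, by 1.11 in WT (limma over all probe sets, adjusted p 0.000326) and by 1.59 in KO cells (adjusted p 7.75e-06).

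After LPS, 8 of the 16 ER arm genes were higher in KO than in WT cells, the chaperones Hspa5 and Hyou1 and the degradation gene Herpud1 among them. Of the 36 members 10 were called higher in KO cells and 0 lower, where 5.97% of all genes were called, 2.82% higher and 3.15% lower. Of these 10, 8 were in the ER arm and 2 (Ppp1r15a, Slc3a2) in the ATF4 arm. All 16 genes of the ER arm had a positive difference with a median of 0.52, against 0.18 in the ATF4 arm and -0.018 over all genes. The arms did not differ in this way without the first WT LPS array, where both medians were 0.44, and the ATF4 arm was at 0.09 without WT replicate 3. With values as deposited the ATF4 arm was at 0.46 and with equal hybridisation controls at 0.53. Within the plate columns the ER arm medians were 0.62, 0.60 and 0.36, and 14 of 16 genes were higher in KO in every column, against 5 of 17 of the ATF4 arm. The other scalings gave ER arm medians of 0.71 to 1.00 and moved the median of all genes to between 0.07 and 0.36. With the mean of all probe sets of a gene, the ER arm median was 0.39 and all 16 genes stayed positive. Pdia3, with a difference of 0.09, lay near the nonspecific level (mean 4.39), and other probe sets of Sel1l gave -0.14 to 0.47. The number of members called was 17 with values as deposited, where 1238 of all genes were higher and 129 lower, against 482 and 538. It was 6 without WT replicate 1, 4 without WT replicate 2, 4 without KO replicate 1 and 2 without KO replicate 2. Of the 9 macrophage markers, 3 were called lower in KO cells after LPS, and their part in the result was not tested.

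Herpud1 and Dnajb9 were the members called in all 17 alternative analyses. Herpud1 was 7.30, 7.33 and 6.51 in WT and 8.01, 8.20 and 7.91 in KO arrays after LPS, 1.99-fold higher in KO (0.99 ± 0.18, adjusted p 0.00356). Dnajb9 (ERdj4, a BiP co-chaperone) was 8.68, 8.66 and 8.54 in WT and 9.39, 9.32 and 9.72 in KO arrays, 1.80-fold higher (0.85 ± 0.13, adjusted p 0.000948). In both genes the lowest KO array lay above the highest WT array. The second Herpud1 probe set gave a difference of 1.44. Ppp1r15a was 2.11-fold higher in KO (1.08 ± 0.21, adjusted p 0.00603) and was called in 16 of 17 alternatives. Hspa5 was higher by 0.71 ± 0.18 (adjusted p 0.0305, 14 of 17 alternatives) and Hyou1 by 0.77 ± 0.18 (adjusted p 0.015, 13 of 17). Manf was higher by 0.62 ± 0.16 (adjusted p 0.0296, 11 of 17) and Slc3a2 by 0.55 ± 0.14 (adjusted p 0.0226, 10 of 17). Dnajc3, Sel1l and Pdia4 were called with differences of 0.43 to 0.53 and held in 9, 7 and 6 of 17 alternatives. Creld2 and Pdia6, at 0.53 ± 0.16 and 0.57 ± 0.17, missed the threshold (adjusted p 0.0562 and 0.0652).

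The transcription factors at the head of the pathways were not called between genotypes after LPS. Atf4 differed by 0.11 ± 0.13 (adjusted p 0.725, 95% interval -0.17 to 0.38), Ddit3 by 0.11 ± 0.30 (adjusted p 0.893) and Xbp1 by 0.24 ± 0.11 (adjusted p 0.23). Asns, at 0.48 ± 0.43 (adjusted p 0.615), and Slc7a5, at 0.18 ± 0.32 (adjusted p 0.833), were not called. Psat1 was lower in KO cells at -1.51 ± 0.47 without passing the threshold (adjusted p 0.072). In the WT LPS group the first array stood apart in the ATF4 arm, with Asns at 9.26 against 7.67 and 7.71 and Psat1 at 7.45 against 5.93 and 4.70, and its Gapdh 5' minus 3' value was -0.07 against -0.50 and -0.75.

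The difference between genotypes in the response to LPS was positive for 32 of 36 members and called for none. This interaction was called for 0 of 36 members, where 1.11% of all genes were, with 8 members at an unadjusted p under 0.05. It was positive for 16 of 16 genes of the ER arm (median 0.41) and for 15 of 17 of the ATF4 arm (median 0.24). The order of the arms turned without the first WT LPS array, with 0.33 in the ER arm and 0.51 in the ATF4 arm, and without WT replicate 1 in every condition, with 0.30 and 0.43. Leaving out a replicate number of 1 genotype gave ATF4 arm medians of 0.09 (without WT replicate 3) to 0.43 (without WT replicate 1), and the other scalings 0.41 to 0.72, with the ER arm at 0.74 to 1.04. The values furthest from 0 were Psat1 at -1.57 ± 0.67 (adjusted p 0.345), Ppp1r15a at 1.04 ± 0.30 (adjusted p 0.136), Herpud1 at 0.95 ± 0.26 (adjusted p 0.108), Asns at 0.93 ± 0.61 (adjusted p 0.591) and Chac1 at 0.85 ± 0.71 (adjusted p 0.694). Dnajb9, at 0.73 ± 0.19, had the smallest adjusted p (0.08). With values as deposited 5 members of the ER arm were called (Dnajb9, Hyou1, Manf, Herpud1, Sel1l), with the median of all genes at 0.44 and 278 genes higher and 16 lower, against 88 and 101. Without the third KO vehicle array 3 were called (Hspa5, Hyou1, Manf), and without the first WT LPS array 2 (Ppp1r15a, Herpud1).

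**Figure D4:**
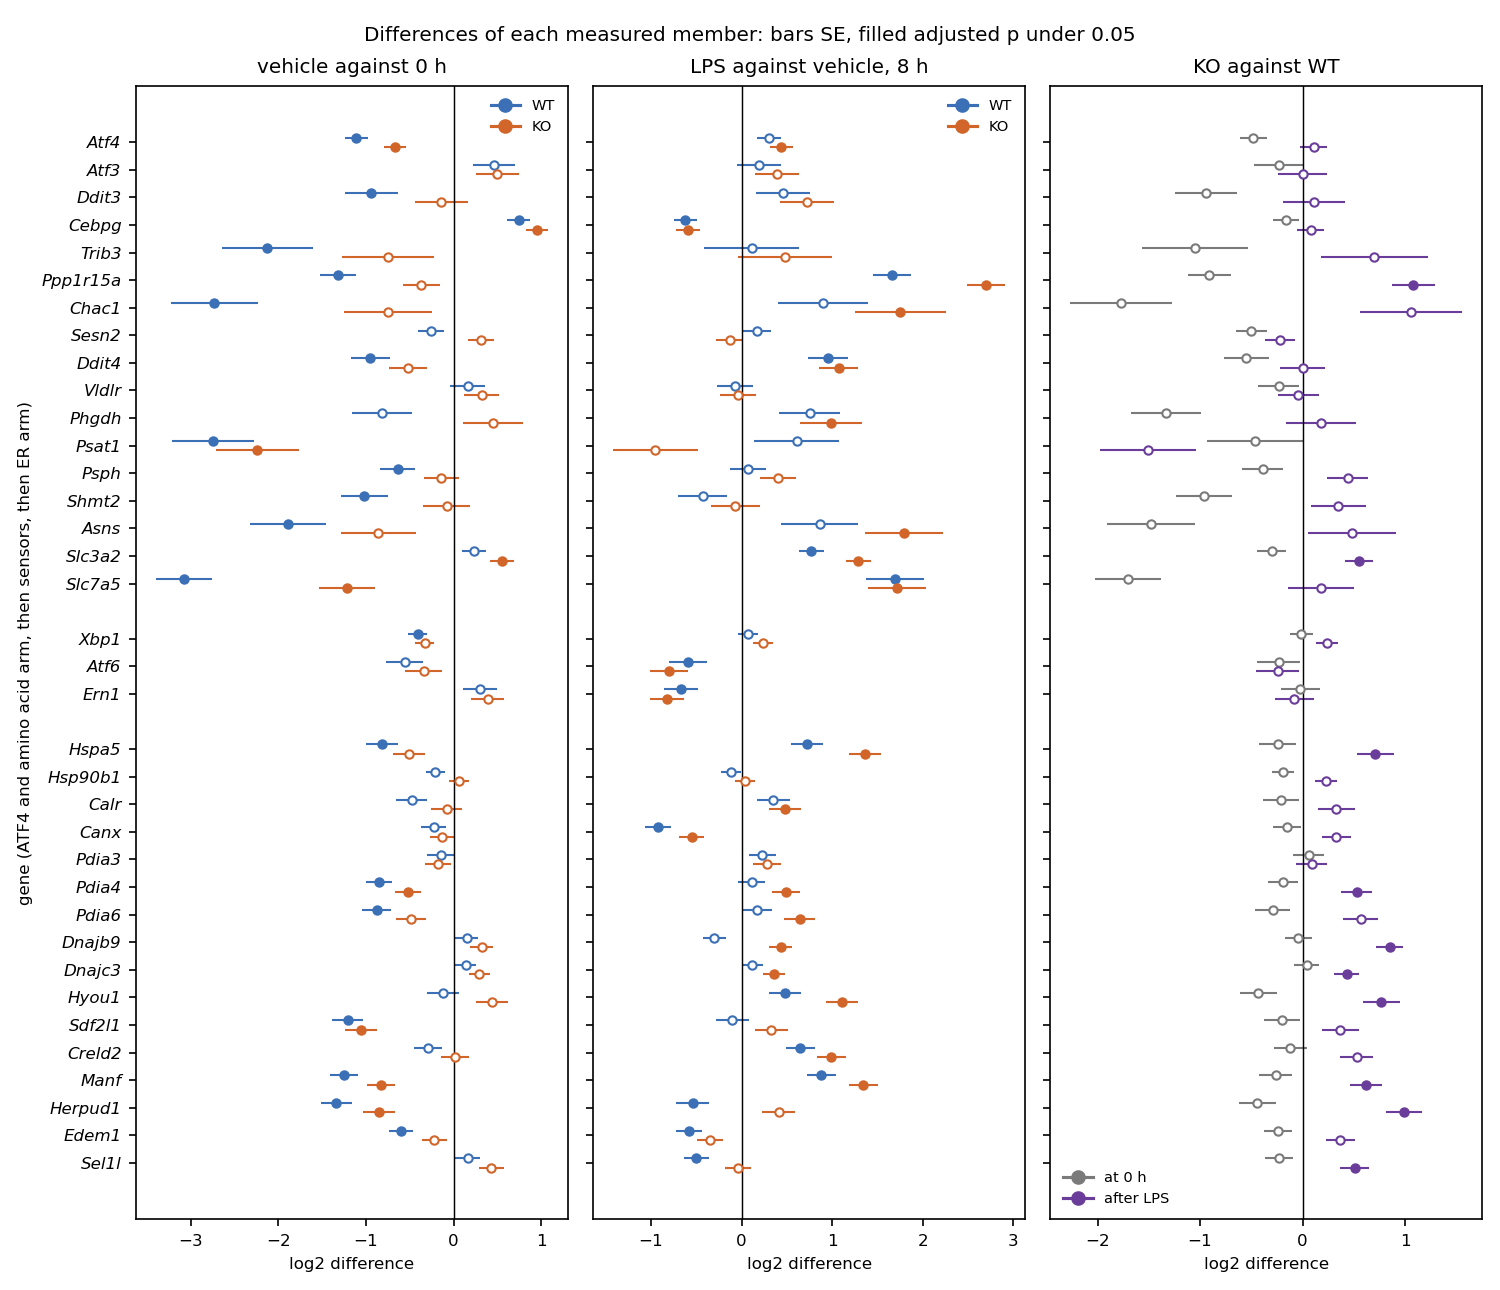
Log2 differences (horizontal axes) of the 36 measured members for vehicle against 0 h and LPS against vehicle in each genotype, and for KO against WT at 0 h and after LPS, with SE as bars and filled points for adjusted p under 0.05. In the right panel the ATF4 arm lies left of 0 at 0 h, and every gene of the ER arm lies right of 0 after LPS.

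Genes of the same pathways outside the members were read from 4 further lists. Of the eIF2 kinases and eIF2 machinery, 14 of 16 were measured. In this list 4 rose and 3 fell after LPS in WT cells, where 13.7% of all genes were higher and 18.7% lower, and 3 rose and 2 fell in KO cells, against 13.9% and 20.6%. The share that fell in WT cells was near that of all genes, dim genes included. Of the 10334 genes above the nonspecific level on at least 3 arrays, 2391 were higher and 3405 lower in WT cells. These shares were larger than those of all genes. Eif2ak2 (PKR, the kinase that senses double-stranded RNA) had log2 differences of 1.86 ± 0.25 (WT) and 1.92 ± 0.25 (KO), whereas Eif2ak3 (PERK) fell by 1.10 on the log2 scale in WT (SE 0.14) and by 0.72 in KO cells (SE 0.14). Ppp1r15b, the constitutive counterpart of Ppp1r15a, rose by 1.03 ± 0.12 and 1.25 ± 0.12. No gene of this list was called between genotypes after LPS, with 5 at an unadjusted p under 0.05.

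Of 37 other genes linked to ATF4, 32 were measured, and 13 fell and 2 rose from 0 h to vehicle in WT cells (7.01% and 7.16% of all genes), 6 and 2 in KO cells (5.79% and 6.76%). The falls in WT included Jdp2 at -2.08 ± 0.27, Slc7a1 (a transporter of arginine and lysine) at -2.0 ± 0.22 and Aldh18a1 (proline synthesis) at -1.95 ± 0.24, with several aminoacyl-tRNA synthetases. After LPS 15 rose and 6 fell in WT cells (13.7% and 18.7% of all genes) and 14 rose and 3 fell in KO cells (13.9% and 20.6%). Slc7a11, the cystine and glutamate exchanger, and Jdp2 led the rises. The share that fell in WT cells was near that of all genes, dim genes included. Slc38a2, a neutral amino acid transporter, fell by 2.19 on the log2 scale in WT (SE 0.15) and by 1.53 in KO cells (SE 0.15). Between genotypes after LPS, Slc7a11 was higher in KO cells by 1.54 ± 0.26 (adjusted p 0.00201) and Slc38a2 by 0.60 ± 0.15 (adjusted p 0.0231).

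Of 50 other genes of ER folding, translocation and degradation, 48 were measured. After LPS 12 rose and 16 fell in WT cells, against 13.7% and 18.7% of all genes. In KO cells 16 rose and 10 fell, against 13.9% and 20.6%, so the share that fell was near that of all genes, dim genes included. Of the 10334 genes above the nonspecific level on at least 3 arrays, 2391 were higher and 3405 lower in WT cells. Both WT shares of this list, taken without that filter, were near these. Ero1a, the oxidase that recharges protein disulfide isomerases, rose by 1.71 ± 0.21 and 1.81 ± 0.21. In KO against WT cells after LPS 6 were higher and 0 lower (2.82% and 3.15% of all genes), among them Hspa13 at 0.71 ± 0.18 (adjusted p 0.0239), Pdia5 at 0.67 ± 0.14 (adjusted p 0.00811), Syvn1 (HRD1, the ubiquitin ligase of ER-associated degradation) at 0.60 ± 0.12 (adjusted p 0.0055) and Dnajc10 at 0.55 ± 0.13 (adjusted p 0.0203). The list had a positive difference in 41 of 48 genes with a median of 0.27. Of 18 heat shock genes of the cytosol and mitochondria 13 were measured, and 8 rose after LPS in each genotype (13.7% and 13.9% of all genes), led by Hspa1b at 3.42 ± 0.22 in WT and 3.14 ± 0.22 in KO cells. Only Hspa4l was called between genotypes after LPS, higher in KO by 0.88 ± 0.20 (adjusted p 0.0153).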

How the data were processed

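RNA was measured with Affymetrix HT MG-430PM arrays. The authors deposited linear intensity for each probe set of each array, and the submitters' processing notes name Partek; which version and background correction were used is not given in the sources. The column medians differed (11.4 to 18.6), so values were put on the log2 scale and quantile-normalized, a step chosen after seeing the values because normalized log2 values had been assumed. Of 45141 probe sets, 104 controls were left out afterwards. Among the rest, 28898 had 1 gene symbol, 551 several and 15588 none. The probe set with the highest mean stood for each of 17097 genes, and 7180 genes had several. The nonspecific level is the 95th percentile of 23 nonspecific controls in each array (3.71 to 4.54).

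Using limma 3.58.1 (R 4.3.3), a linear model gave each group its mean over all 18 arrays, followed by the empirical Bayes moderated test (12 residual degrees of freedom). Two-sided p-values were adjusted by Benjamini-Hochberg over all genes, with a threshold of 0.05, over 9 comparisons. The number of arrays limits the precision. The members, lists and tests were chosen with earlier results of these data known. Members past the threshold with a log2 difference of at least 1 in any comparison, and Atf4, Xbp1, Hspa5 and Ddit3, were to be described by array; from other lists at most 4 called genes with the largest differences. Alternatives changed the scaling, the filter or floor on dim values, the probe set, a block and the arrays kept. The fit was tested on simulated data. Some members have probe sets that differ after LPS in direction (Atf6, Dnajc3) or in whether they were called (Ern1, Xbp1, Pdia6, Edem1, Sel1l, Hyou1, Herpud1). Gene symbols came from the platform annotation, promoters from RefSeq.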

Additional observations from a re-analysis of the deposited data

Results flagged for a closer look

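Slc7a11, the cystine and glutamate exchanger and a known target of ATF4, was flagged because its response to LPS differed between the genotypes by a test of the difference itself. The interaction was 1.99 ± 0.37 on the log2 scale (limma, adjusted p 0.0127). WT vehicle arrays read 4.81, 4.70 and 4.56 for Slc7a11, and WT LPS arrays 8.84, 7.98 and 9.45. KO vehicle arrays read 4.07, 4.22 and 4.43, and KO LPS arrays 10.01, 10.53 and 10.34. All vehicle arrays were above the nonspecific level, and the rise was 16.7-fold in WT and 66.5-fold in KO cells. It is a gene of the wider ATF4 list and not a member, and no member had a called interaction.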

How the results depend on the processing

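Over members, comparisons and 17 alternatives, 4857 of 5499 values kept their direction and side of the threshold, 177 lost and 117 gained the call, and 348 changed sign, of which 8 were called under either setting and 340 under neither. In KO against WT after vehicle 25 of 36 members were positive, against 4 with values as deposited and 8 with the common median, and for LPS in WT cells 24, against 12 with values as deposited. With values as deposited, WT responses to LPS reversed for Sesn2 (-0.59), Pdia4 (-0.62) and Hyou1 (-0.20, and -0.19 with equal hybridisation controls). With the mean of all probe sets, WT Atf6 turned to 0.03, and Dnajc3 to -0.83 in WT and -0.21 in KO cells after LPS and -0.41 for vehicle in WT cells. For KO against WT after LPS (10 called), values as deposited gave 17, and leaving out replicates or the 3 single arrays added after seeing the data 2 to 12. For KO against WT at 0 h (0 called), equal hybridisation controls gave 2, and 1 each came from the common median, values as deposited, the filter, the floor, the mean of probe sets and the replicate block, with 0 to 2 on leaving out replicates. For LPS in KO cells (21), equal hybridisation controls gave 11 and leaving out replicates 12 to 23. For the difference of LPS responses (0), values as deposited gave 5, and the filter and the mean of probe sets 1 each, with 0 to 3 on leaving out replicates. For vehicle in WT cells (20), equal hybridisation controls gave 13 and leaving out replicates 12 to 22, and in KO cells (9) 4 to 13. With the replicate block 9 members were called for KO against WT after LPS and 15 and 23 for LPS in WT and KO cells. Whether equal replicate numbers pair the samples was not settled. Deviations of equal numbers correlated at -0.05 to 0.14 within a genotype, over 0.1 in 2 of 12 pairs, and 6 of 12 matched their own number best. With 3 arrays per group such weak correlations cannot exclude pairing. Within a genotype each number kept its plate column across conditions. Causes were not tested.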
